A study of Mus musculus with 4 samples.

Results

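The C/EBP family in MC38 cells was described here through 5 genes, Cebpa, Cebpb, Cebpd, Cebpg and Ddit3, out of 26322 genes in the deposited table. MC38 is a mouse line labelled as colorectal cancer. The genes were taken by symbol, and the family was selected on measured values, because the level of Cebpb in these same 4 libraries was known when it was picked. The differences of the members are therefore given as a description, without a test of their own. The study asked how transcription differs between tumour cells that lack CBFβ, the non-DNA-binding partner of the RUNX transcription factors, and their controls. Of the 4 libraries, 2 came from sgNT cells (labelled WT), electroporated with Cas9 and a non-targeting guide, and 2 from sgCbfb cells (labelled CbfbKO), electroporated with Cas9 and a guide against Cbfb. Both groups had therefore been exposed to Cas9 and a guide, and the cells were taken at least 1 week later. A further replicate of each group was collected but left unsequenced for its RNA quality, and the labels say neither whether the cells were a clone or a pool nor whether the replicates were separate cultures, so the spread between them may be technical.

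C/EBP factors are basic leucine-zipper proteins that bind DNA as dimers. C/EBPα, C/EBPβ and C/EBPδ carry activation domains and are best known from adipocyte differentiation, the liver acute-phase response and myeloid cells, with C/EBPβ and C/EBPδ being induced by IL-6, IL-1 and other inflammatory signals. C/EBPγ lacks an activation domain and pairs with other family members and with ATF4, and CHOP, the product of Ddit3, is induced by ER stress through ATF4 and draws its partners away from the usual C/EBP sites. The balance between these groups of partners is therefore a common way to look at the family.

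Promoter sequences were available for 4 of the 5 members (RefSeq, GRCm38.p6). Those of the 3 most abundant members and of Cxcl1, the C/EBP target gene with the largest fall in level below, are shown as the 250 bases before the annotated start, 5′ to 3′ on the gene's strand, so that the searched letters can be seen beside the levels. Capitals mark TGACG (the half-site of the cAMP response element, CRE), CCAAT (the CCAAT box) or TTGCNNCA (a pair of C/EBP half-sites) on either strand. On the other strand the first is read as CGTCA and the second as ATTGG.
Cebpb, chr2:167688665-167688914, plus strand: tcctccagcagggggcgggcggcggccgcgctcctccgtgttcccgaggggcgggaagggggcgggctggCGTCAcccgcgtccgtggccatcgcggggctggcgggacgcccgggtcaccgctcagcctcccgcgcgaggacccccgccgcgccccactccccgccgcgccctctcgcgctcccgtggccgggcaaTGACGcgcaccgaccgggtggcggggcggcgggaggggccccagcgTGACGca
Cebpg, chr7:35056567-35056816, minus strand: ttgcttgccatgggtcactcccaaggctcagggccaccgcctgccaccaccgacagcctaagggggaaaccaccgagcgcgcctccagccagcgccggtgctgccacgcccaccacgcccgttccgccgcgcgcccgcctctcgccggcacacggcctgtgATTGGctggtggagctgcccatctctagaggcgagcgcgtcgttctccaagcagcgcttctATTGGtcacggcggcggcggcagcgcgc
Ddit3, chr10:127290543-127290792, plus strand: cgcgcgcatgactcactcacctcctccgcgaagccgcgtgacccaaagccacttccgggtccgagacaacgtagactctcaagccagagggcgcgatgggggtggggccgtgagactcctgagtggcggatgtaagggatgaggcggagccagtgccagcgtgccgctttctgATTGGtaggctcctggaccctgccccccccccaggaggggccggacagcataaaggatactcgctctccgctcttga
Cxcl1, chr5:90890995-90891244, plus strand: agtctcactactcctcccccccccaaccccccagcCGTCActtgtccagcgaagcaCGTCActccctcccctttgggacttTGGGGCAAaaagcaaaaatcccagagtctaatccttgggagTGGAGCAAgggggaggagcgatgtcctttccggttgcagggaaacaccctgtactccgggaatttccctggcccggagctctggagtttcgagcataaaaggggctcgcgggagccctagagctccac

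The Cebpb promoter was the richest in G and C of the 4, at 81.6%, and held 3 TGACG matches, at positions -180 to -176, -53 to -49 and -7 to -3 from the start. The Cebpg promoter (70.8% G and C) held 2 CCAAT boxes, at -89 to -85 and -28 to -24, and the Ddit3 promoter (64.8%) held 1, at -77 to -73. In Cxcl1, 2 matches to TTGCNNCA lay at -169 to -162 and -128 to -121, beside 2 TGACG matches. Each of the former holds a single C/EBP half-site, read as GCAA. The promoter of Ptges, the other target gene called lower, held none of the motifs searched. It was taken at chr2:30903298-30903547 on the minus strand, which lies inside the gene range given for Ptges below. A start at the far end of that range was not searched. Over the window from 250 bases before to 50 after the start, TGACG was present in 20.8% of 32851 promoters, CCAAT in 37.4% and TTGCNNCA in 11.4%, so each of these letters is common by itself. The RUNX letters TGTGGT, present in 16.8% of all promoters, were in 0 of the 4 members' windows, and so were the C/EBP palindrome TTGCGCAA (0.183% of promoters), the CRE TGACGTCA (1.79%), which contains TGACG, and the C/EBP-ATF composite TGATGNAA (3.97%). TTGCNNCA was in 1 of the 4 members' windows, that of Cebpa, at -185 to -178. TGACG was added to the search after the data had been seen, and a match or its absence says only whether these letters stand in this window.

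The libraries held 3396192 and 3335116 counted reads for sgNT and 3907936 and 3189035 for sgCbfb, so that 1 read was worth 0.256 to 0.314 CPM (reads per 1e6 counted reads). Levels are given as the deposited log2 CPM, which includes a small added prior count, and the reads behind them were recovered from the values. These are 3′ libraries, which read the end of each transcript, so the read number does not grow with transcript length. Levels of different genes are set side by side on this basis. Such comparisons can still be affected by the overlapping annotation described below. Cbfb itself was at 6.45 and 6.43 log2 CPM in sgNT and 5.03 and 5.31 in sgCbfb, 41.5% of the sgNT level, although its 3′ reads do not cover the edited site and so do not measure editing. The 9 epithelial markers examined, among them Epcam, Krt18 and Vil1, summed to between 1.57 and 1.80 CPM per library, with Krt18, Vil1 and Lgals4 at 0 reads in all 4, whereas Vim, a mesenchymal gene, had between 6737 and 8669 reads. Of the other mesenchymal markers, Dcn and Pdgfra had between 91 and 169 reads per library, while Col1a1, Col1a2, Pdgfrb and Acta2 had at most 16. Epithelial marker RNA was thus near absent, although the label names a colorectal cancer. Of 8 leukocyte markers, 6 had no read in any library and the sum stayed at or below 1.54 CPM in each, so leukocyte RNA was near absent too. Among 12207 genes tested with limma on the log2 values, 192 were higher and 153 lower in sgCbfb at an adjusted p of 0.05, or 172 and 244 after voom with scaling to the median gene.

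**Figure D1:**
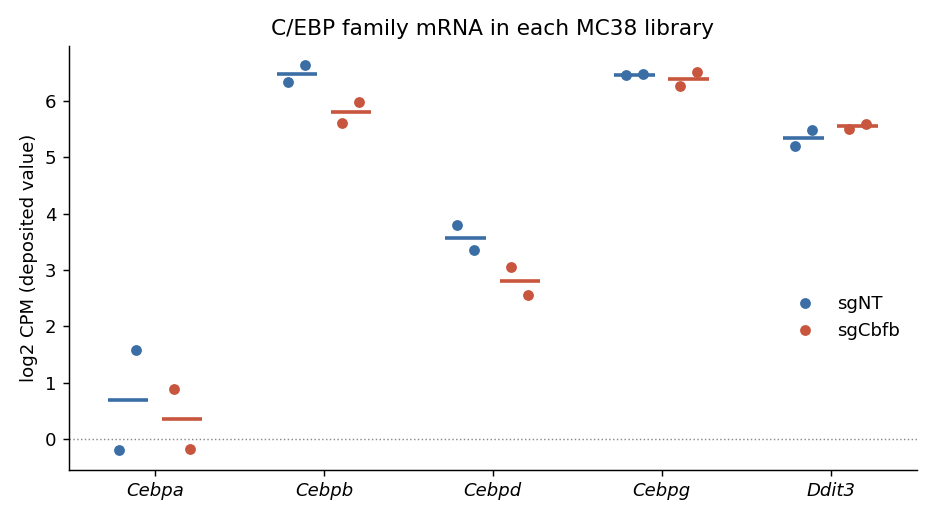
Deposited log2 CPM of the 5 C/EBP family genes in each library, with points for libraries (sgNT blue, sgCbfb orange) and bars for the mean of each group (n = 2). The sgCbfb points of Cebpb and Cebpd lie below both sgNT points, those of Cebpa and Cebpg are interleaved with them, and those of Ddit3 lie just above.

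Cebpb, the inflammation-responsive activator of the family (chr2:167688915-167690418, plus strand), had 272 and 328 reads in sgNT and 189 and 198 in sgCbfb. Its levels were 6.33 and 6.63 log2 CPM in sgNT and 5.61 and 5.97 in sgCbfb, means of 6.48 ± 0.21 and 5.79 ± 0.25 (SD, n = 2). Both sgCbfb libraries were below both sgNT libraries, and the nearest pair across the groups was 0.36 apart on the log2 scale. Counted as CPM with exact 95% Poisson intervals, which cover counting error only, the gene was at 80.1 (70.9 to 90.2) and 98.3 (88.0 to 109.6) in sgNT and at 48.4 (41.7 to 55.8) and 62.1 (53.7 to 71.4) in sgCbfb. The intervals of sgCbfb replicate 2 and sgNT replicate 1 overlap slightly, while the other sgCbfb library stands clear of both sgNT libraries. The difference was -0.69 on the log2 scale (SE 0.12, 95% interval -0.95 to -0.43), or 62.0% of the sgNT level (51.9% to 74.1%). A lower level in each cell and a smaller share of cells with Cebpb cannot be told apart in bulk RNA, and 3′ reads do not separate the long and short C/EBPβ proteins, which are translated from 1 mRNA.

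Cebpb was the only member past the adjusted threshold of the fit over all genes, where 2.83% of tested genes were called in either direction, 1.25% as lower and 1.57% as higher. No reading is made of this 1 call of 5, since the same contrast chose the family. The call also depends on how the spread is estimated. The spread of Cebpb within its groups was 0.231 log2 units, about double the 0.109 that limma's trend assigned to genes of its level, and the moderated value used was 0.124. The direction was the same in 13 of 13 alternatives and the call was kept in 7. It was lost without the low-value filter (-0.69), when the mean-variance trend was dropped (-0.69) and with quantile normalization (-0.70). It was also lost without sgNT replicate 2 (-0.54), without sgCbfb replicate 1 (-0.51) and without sgCbfb replicate 2 (-0.87). Without either sgCbfb library, 0 genes of all those tested were called by limma in either direction (1104 and 1169 had an unadjusted p under 0.05), so these last losses are not particular to Cebpb.

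**Figure D2:**
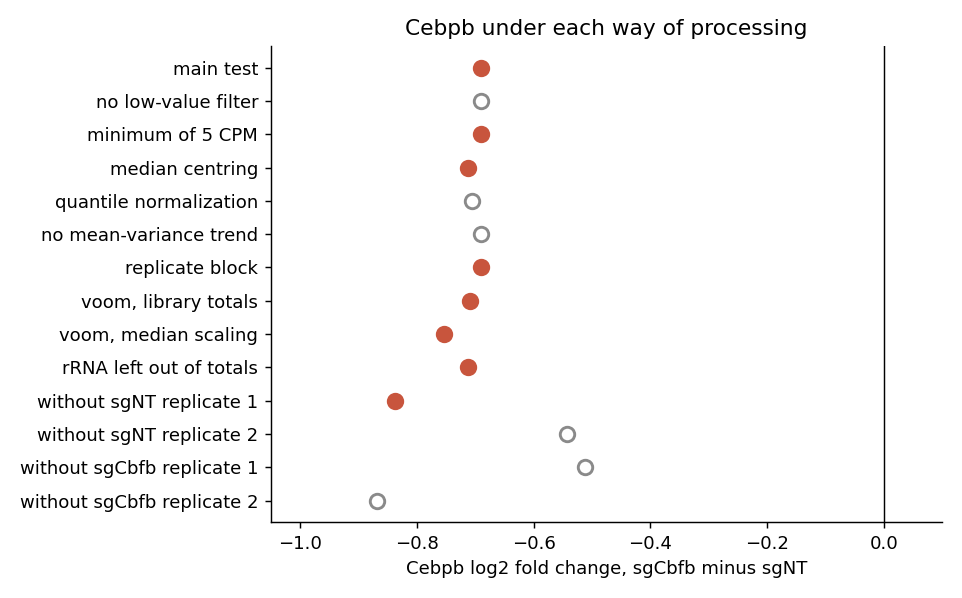
Log2 fold change of Cebpb (sgCbfb minus sgNT) under the main test and 13 alternatives, filled where the gene was past the adjusted threshold of 0.05 and open where it was not. All 14 values are negative, between -0.87 and -0.51, and 6 alternatives are open.

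Cebpd, the activator that is usually induced together with Cebpb (chr16:15887286-15891031, plus strand), was expressed at a much lower level. It had 45 and 32 reads in sgNT and 30 and 17 in sgCbfb, which gave 3.79 and 3.35 log2 CPM against 3.05 and 2.56. Both sgCbfb libraries were again below both sgNT libraries, with 0.30 between the nearest pair. The difference of -0.76 was about as large as that of Cebpb, but its error was more than double (SE 0.29, 95% interval -1.37 to -0.16), and it did not pass the threshold over all genes. The level in sgCbfb was 58.9% of that in sgNT, with an interval of 38.8% to 89.4%.

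Cebpa, the activator of terminal differentiation in fat, liver and granulocytes (chr7:35119293-35121928, plus strand), was at the limit of detection. There were 1 and 8 reads in sgNT and 5 and 1 in sgCbfb, and the groups overlapped. Its difference of -0.32 had a 95% interval from -1.52 to 0.87, which includes changes of either direction. The libraries of each group also differed from each other, with a spread of 1.03 log2 units where limma's trend gave 0.52 for genes of this level. Cebpe, the family member of late granulocytes, was not tested, with 1 read in a single sgCbfb library.

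Cebpg, the short partner without an activation domain (chr7:35046422-35056573, minus strand), lies 62.72 kb from Cebpa on the same chromosome but was far more abundant in both groups. It had 296 and 294 reads in sgNT and 296 and 289 in sgCbfb, or 6.46 and 6.47 log2 CPM against 6.25 and 6.51. The sgNT libraries fell between the sgCbfb libraries. The difference was -0.081 (SE 0.10) with a 95% interval of -0.29 to 0.13, that is, 81.5% to 110% of the sgNT level.

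Ddit3, which encodes the dominant-negative partner CHOP (chr10:127290774-127296288, plus strand), had 122 and 147 reads in sgNT and 175 and 151 in sgCbfb. Its levels were 5.19 and 5.48 log2 CPM in sgNT and 5.50 and 5.58 in sgCbfb. The sgCbfb libraries were higher, but only 0.023 separated the nearest pair, less than the 0.29 between the sgNT libraries. The difference was 0.21 (SE 0.14, 95% interval -0.073 to 0.49) and did not pass the threshold. Groups that do not overlap were common among the tested genes, with both sgCbfb libraries below both sgNT libraries in 16.8% and above them in 27.4%. In the family, Cebpb and Cebpd were of the former kind and Ddit3 of the latter.

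**Figure D3:**
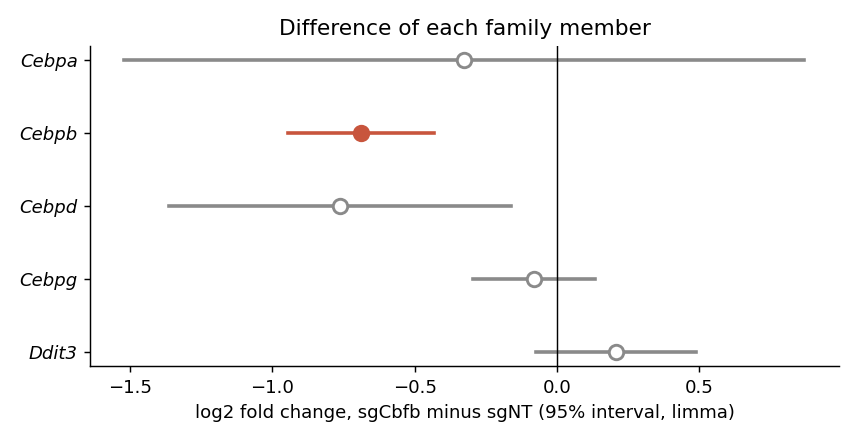
Log2 fold change (sgCbfb minus sgNT) of each family member with its 95% interval from limma, filled for the gene past the threshold over all genes. The intervals of Cebpb and Cebpd lie below 0, that of Cebpa spans from -1.52 to 0.87, and those of Cebpg and Ddit3 include 0.

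The order of the levels differed between the groups. In sgNT, Cebpb (mean 6.48) and Cebpg (6.46) shared the top of the family with overlapping libraries, followed by Ddit3 (5.34), Cebpd (3.57) and Cebpa (0.69). In sgCbfb, Cebpg (6.38) was alone at the top, and Cebpb (5.79) lay next to Ddit3 (5.54), the lower Cebpb library at 5.61 and the higher Ddit3 library at 5.58. Ratios within a library, which do not depend on library totals, showed the same shift. Cebpb had 2.23 reads for each Ddit3 read in both sgNT libraries and 1.08 and 1.31 in the sgCbfb libraries. Against Cebpg, the ratio of Cebpb was 0.919 and 1.12 in sgNT and 0.639 and 0.685 in sgCbfb. The ratio of Ddit3 to Cebpg was 0.412 and 0.50 in sgNT and 0.591 and 0.522 in sgCbfb, a smaller separation.

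As a share of the reads of all 5 genes, Cebpb made up 37.0% and 40.5% in sgNT (exact 95% intervals 33.5% to 40.6% and 37.1% to 44.0%, counting error only). In sgCbfb it made up 27.2% and 30.2% (23.9% to 30.7% and 26.7% to 33.9%). The intervals of sgNT replicate 1 and sgCbfb replicate 2 overlap slightly, and those of the other pairs across the groups do not. Ddit3 went from 16.6% and 18.2% of family reads to 25.2% and 23.0%, and Cebpg from 40.2% and 36.3% to 42.6% and 44.1%. The members with activation domains, Cebpa, Cebpb and Cebpd, together had 0.761 and 0.834 reads for each read of Cebpg and Ddit3 in sgNT, and 0.476 and 0.491 in sgCbfb. These shares and ratios restate the values that chose the family. Summed over the libraries of a group, Cebpb had 600 reads in sgNT and 387 in sgCbfb, Ddit3 had 269 and 326, and Cebpg had 590 and 585.

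**Figure D4:**
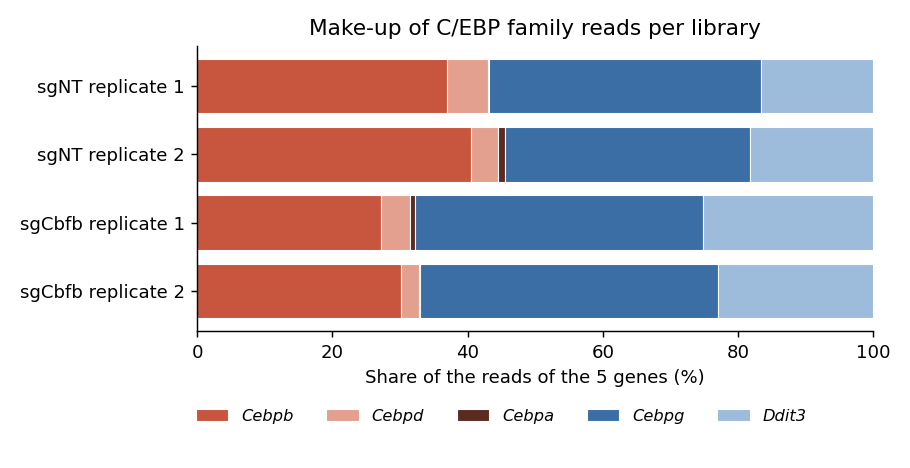
Make-up of the reads of the 5 C/EBP family genes in each library, as percent of their sum (736 and 809 reads in sgNT, 695 and 656 in sgCbfb). The Cebpb segment is 37.0% and 40.5% in sgNT and 27.2% and 30.2% in sgCbfb, and the Ddit3 segment is wider in both sgCbfb libraries.

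Annotated genes on the opposite strand overlap all 5 members, and the sources do not say whether the counting used strand. For 3 members such a gene has a row in the table used here. Tmem189 overlaps Cebpb but stops at position 167689822, short of the 3′ end of Cebpb. It had 61 and 72 reads in sgNT and 89 and 52 in sgCbfb, with a difference of -0.030 (SE 0.20). Spidr, which covers the 3′ end of Cebpd, had between 20 and 28 reads per library. Mars, which overlaps the end of Ddit3, had between 326 and 509. None of these 3 genes passed the threshold.

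The tested genes whose pattern over the 4 libraries was closest to that of Cebpb, by Euclidean distance of centred log2 values, were Gm12704 (0.093), Mmaa (0.107), Tprn (0.118), AI182371 (0.124) and Casp1 (0.137). All 5 had few reads, between 1 and 53 per library, and none passed the threshold, so their likeness is measured with large counting error. No other family member was as close. Cebpg was at a distance of 0.644, Cebpd at 0.793, Ddit3 at 0.919 and Cebpa at 1.49, against a median of 0.865 over all other tested genes.

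The genes around the family were examined as lists, whose median differences are read against 0.039, the median of all 12207 tested genes. Of the partners and other basic leucine-zipper factors that share C/EBP sites, 8 of 12 were tested and none was called higher or lower (differences of -0.20 to 0.84, lowest adjusted p 0.173 by limma). Atf4, the stress-induced partner of C/EBPγ and CHOP, was among the most abundant, with 2780 and 2779 reads in sgNT and 3141 and 2458 in sgCbfb, a difference of -0.07. Atf5, a related stress factor, differed by 0.11. None of the 15 tested regulators of C/EBP protein, such as the Tribbles adaptors and Celf1, was called either. Their differences ranged from -0.84 to 0.37 around a median of 0.10, with Celf1, an RNA-binding protein that acts on translation of C/EBPβ, at 0.19.

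Among 15 genes of the inputs to Cebpb and Cebpd (receptors of the IL-6 family, IL-1, IL-17, TNF and endotoxin, the JAK kinases, STAT3 and the signalling regulators Socs3, Nfkbiz and Creb1), 2 receptor genes rose and none fell, where 1.57% of all tested genes were called higher and 1.25% lower. Lifr, the receptor for LIF, had 19 and 11 reads in sgNT and 43 and 34 in sgCbfb, a log2 difference of 1.22 (SE 0.31, adjusted p = 0.0309 by limma). Osmr, the oncostatin M receptor, had 4 and 4 reads in sgNT and 18 and 15 in sgCbfb, a difference of 1.57 (SE 0.41, adjusted p = 0.0322 by limma). Both sgCbfb libraries were above both sgNT libraries for each gene, but the reads were few. The abundant members of the list were not called, with Jak1 at 0.05 and Stat3, which transmits the signal of these receptors, at 0.30 (adjusted p = 0.114 by limma), and the median of the list was 0.03. The other receptor genes of the list, looked at after their values were seen, did not pass the threshold. Il11ra1 was at 0.21 and Tnfrsf1a at 0.03, with overlapping groups. The remaining 5 had both sgCbfb libraries below both sgNT libraries, as had 16.8% of all tested genes. They were Il1r1, the IL-1 receptor, at -0.73 (adjusted p = 0.0793 by limma), Il6ra, the IL-6 receptor, at -0.69 (adjusted p = 0.188 by limma), Tlr4, the endotoxin receptor, at -0.67 (adjusted p = 0.272 by limma), Il6st, the shared subunit gp130, at -0.41 (adjusted p = 0.199 by limma) and Il17ra, the IL-17 receptor, at -0.29 (adjusted p = 0.331 by limma).

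Of 21 inflammatory and acute-phase genes known as C/EBP targets, 13 were tested, 2 fell and none rose, and 6 had no read in any library. Over all tested genes, 1.25% were called lower. Cxcl1, a neutrophil-attracting chemokine (chr5:90891241-90893115), had 275 and 317 reads in sgNT and 128 and 110 in sgCbfb. Its levels were 6.35 and 6.58 against 5.06 and 5.13 log2 CPM, a difference of -1.37 (SE 0.12, adjusted p = 4.82e-08 by limma) or 38.7% of the sgNT level. Ptges, the inducible prostaglandin E synthase (chr2:30889471-30929863), had 422 and 337 reads in sgNT and 176 and 163 in sgCbfb. Its levels were 6.96 and 6.67 against 5.51 and 5.69 log2 CPM, a difference of -1.21 (SE 0.11, adjusted p = 1.22e-07 by limma). Both genes therefore differed by more than Cebpb did, and their groups did not overlap. Ccl2, a monocyte-attracting chemokine and the most abundant gene of the list, had 1143 and 1332 reads in sgNT and 1325 and 1343 in sgCbfb, with a difference of 0.04 (adjusted p = 0.875 by limma). The list's median of -0.56 comes from genes of which most had few reads, and the highest value in it, that of Csf3, rests on 0 and 0 reads in sgNT and 9 and 2 in sgCbfb. Csf3 was singled out after its values were seen.

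In adipocyte differentiation, the classical programme of the family, 7 of 19 genes were tested and 10 had no reads at all. Klf4, a transcription factor that acts upstream of Cebpb in preadipocytes, was the 1 gene that fell (1.25% of all tested genes did), with 619 and 615 reads in sgNT, 528 and 490 in sgCbfb and a difference of -0.35 (SE 0.08, adjusted p = 0.0161 by limma). Fasn, the fatty acid synthase and the most abundant gene of the list, differed by 0.18 and was not called. The list's median was 0.18, with 5 of the 7 differences above 0, none of them called. Among these 5, Slc2a4 had 0 to 3 reads per library and Fabp4 had 3 to 7. Plin2 was below 0 like Klf4, at -0.13, and was not called. Klf5, a related activator in adipocyte differentiation that was looked at after its values were seen, was at 0.26 (adjusted p = 0.150 by limma). None of the 10 myeloid and hepatocyte lineage genes had enough reads to be tested, and 6 had none, so the lineage targets of Cebpa and Cebpe could not be assessed in these cells.

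For Ddit3, 15 genes of ER stress and of the CHOP response were tested and none was called in either direction, with a median of -0.04 and a lowest adjusted p of 0.0945 by limma. Hspa5, the ER chaperone BiP, differed by 0.02 and Ero1l, an ER oxidase that CHOP induces, by -0.10. For Cebpg and Atf4, 15 amino-acid and redox genes were tested, 1 rose and none fell, against 1.57% of all tested genes called higher. Ddit4, a stress-induced inhibitor of mTORC1, had 256 and 252 reads in sgNT and 377 and 379 in sgCbfb, a difference of 0.50 (SE 0.10, adjusted p = 0.00536 by limma). Vldlr, a lipoprotein receptor looked at after its values were seen, had the same difference of 0.50 but did not pass (adjusted p = 0.0529 by limma). The abundant serine synthesis gene Psat1 differed by -0.01 and Slc3a2, a subunit of amino-acid transporters, by -0.05, and the median of the list was -0.05.

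Of the genes called in these lists, Cxcl1 and Ptges kept their call in 9 of 13 alternatives and lost it without the low-value filter, without the mean-variance trend and without either sgCbfb library. Klf4, Ddit4 and Lifr kept theirs in 6 each and Osmr in 4, and the direction was the same in all 13 for each of these 6 genes. Some alternatives added a call to a list. A minimum of 5 CPM gave 1 regulator of C/EBP protein called higher, 1 input gene and 1 ER stress gene called lower, and 2 amino-acid and redox genes called higher. The replicate block gave the same counts for the last 3 lists, voom with library totals gave 2 amino-acid and redox genes called higher, and voom scaled to the median gave 1 input gene called lower.

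**Figure D5:**
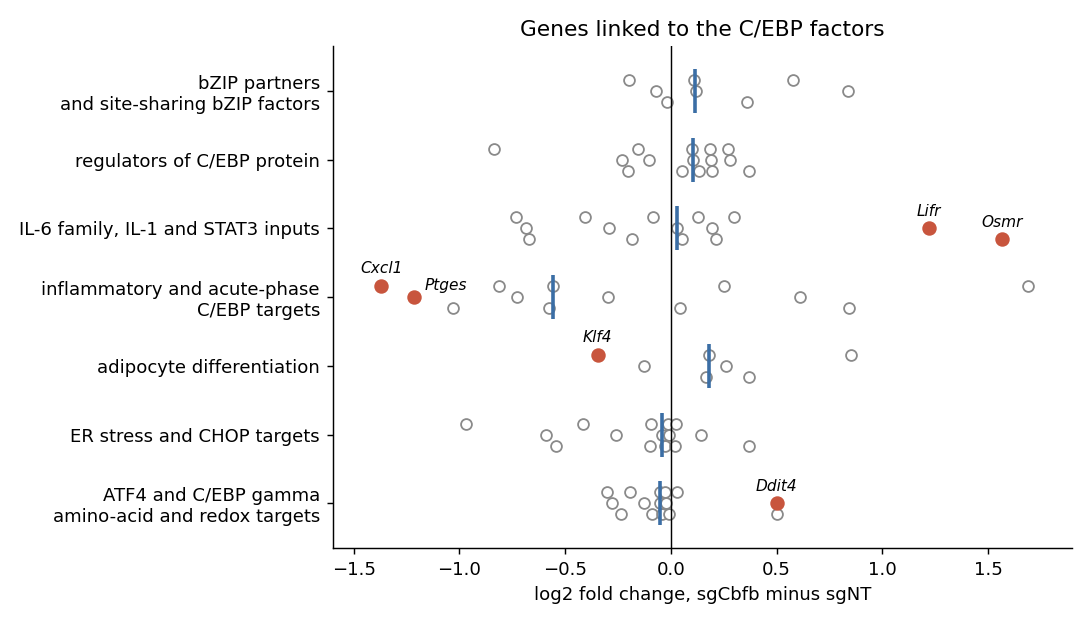
Log2 fold change (sgCbfb minus sgNT) of the tested genes in 7 lists linked to the C/EBP factors, 1 point per gene, filled and named where the gene passed the adjusted threshold of 0.05 over all tested genes, with a blue bar at the median of each list. Cxcl1 and Ptges are the leftmost points at -1.37 and -1.21, Osmr and Lifr lie at 1.57 and 1.22, and most points of the other lists lie near 0.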

How the data were processed

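QuantSeq 3′ mRNA libraries of 2 sgNT and 2 sgCbfb samples of MC38 cells were analysed. The submitters' processing notes name cutadapt 1.9, HISAT2 2.1.0, featureCounts 2.0.1 and mm10, and the annotation release and use of strand are not given in the sources used here. The authors deposited log2 CPM values, scaled to each library's total with a prior count of 2. Genes without reads share a floor of -0.79. Whole reads were recovered from the steps of the values (99.9923% to 100% of values within 0.1 of a whole number) and used for depth, shares and the voom alternatives.

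Limma 3.58.1 in R 4.3.3 (lmFit, eBayes with a mean-variance trend) compared sgCbfb with sgNT over the 12207 genes that reached a log2 CPM of 0 in 2 or more libraries. P-values were two-sided and adjusted by Benjamini-Hochberg, and calls were made at 0.05. An exact permutation test of 2 against 2 libraries cannot go below p = 0.333 and was not used. Intervals are at 95% and cover counting error only, except those of log2 fold changes. With 3 reads as the limit that a count of 0 allows, an undetected gene could reach 0.768 to 0.941 CPM. Positions are from GENCODE M21 (25417 of 26322 symbols matched), and promoters from RefSeq (GRCm38.p6). Tables were made with Python 3.11.15, pandas 2.3.3 and scipy 1.17.1, and figures with matplotlib 3.10.9.

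The members and lists were chosen with earlier results of these data known. Named genes are the members, Cbfb, from each list the called genes (up to the 4 with the smallest p) and the 2 most abundant tested genes, and the 5 genes closest to Cebpb. Of these, 1 gene is left out of the text. Genes named outside this rule were chosen after their values were seen. Alternatives tried were quantile normalization, median centring, a minimum of 5 CPM or no filter on low values, no trend, the replicate number as a block, voom with library totals or with scaling to the median, ribosomal RNA left out of the totals, a threshold of 0.01 and each library left out.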

Additional observations from a re-analysis of the deposited data

How the results depend on the processing

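At this depth and with 2 libraries per group, Cebpa and most acute-phase genes were too low to compare, and the counts of called genes moved with the processing (192 higher and 153 lower in the main test). They were 2 and 53 without the low-value filter, 0 and 0 when the mean-variance trend was dropped, 39 and 44 with quantile normalization, and 103 and 97 at a threshold of 0.01. With a minimum of 5 CPM 300 genes were higher, and voom with scaling to the median gave 244 lower. Leaving out each library in turn gave 0 to 115 higher and 0 to 86 lower. Where limma gave 0 in both directions, 1461 genes (no trend), 1104 (without sgCbfb replicate 1) and 1169 (without sgCbfb replicate 2) had an unadjusted p under 0.05. The single family member called as lower became 0 without the low-value filter, without the trend and with quantile normalization, and 0 to 1 over the libraries left out. The log2 fold change of Cebpb was then -0.69 without the filter (adjusted p = 0.762, limma), -0.70 with quantile normalization (adjusted p = 0.175, limma) and -0.69 without the trend (adjusted p = 0.351, limma), over a range of adjusted p from 1.43e-07 to 0.762 in all alternatives, and -0.87 to -0.51 over the libraries left out. The cause of these losses was not tested. Over the libraries left out, the sign turned for Cebpa (-1.21 to 0.56), Cebpg (-0.21 to 0.048), Jak1 (-0.0016 to 0.11), Ccl2 (-0.11 to 0.20), Hspa5 (-0.025 to 0.071), Ero1l (-0.26 to 0.059), Psat1 (-0.064 to 0.046) and Slc3a2 (-0.13 to 0.031), none of which was called, and voom with scaling to the median gave Ccl2 -0.010 and Hspa5 -0.015. A lone library left in a group was assumed to vary like the other group. Cebpa had no value under the minimum of 5 CPM, and another pseudocount was not tried because the values were already log2.

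Taken over all tested genes, deviations from the group means were uncorrelated between libraries of the same number (correlation -0.0042). This value cannot show whether libraries of the same number were handled together, which the labels do not say. For Cebpb, replicate 2 was above replicate 1 in both groups, by 0.29 in sgNT and 0.36 in sgCbfb. With the replicate block, 320 genes were higher and 215 lower, and Cebpb kept its call.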
